A study of Mus musculus with 8 samples.

Results

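The genes described here are 38 genes of the NRF2 response, glutathione metabolism and ferroptosis defence, taken by gene symbol from a table of 24584 genes measured by RNA-seq in mouse lung. They were listed for their known roles, by a rule that uses no measured value but was written with earlier results of these data known, so the shares of called genes below are a description. They hold NRF2 and its repressor KEAP1, antioxidant targets of NRF2, the enzymes that make and use glutathione, and the enzymes that remove superoxide and peroxides. They also hold enzymes that act on or protect the lipids that are peroxidized in ferroptosis. Lungs of 4 mice given LPS were compared with lungs of 4 mice given tangeretin, a flavone of citrus peel, before LPS (the LPS + Tan group), to ask which transcripts tangeretin changes in acute lung injury. The mice of both groups were male, wild type and of the outbred ICR stock, and were 6 to 8 weeks old. Every mouse received LPS at 5 mg/kg into the peritoneum, and in the LPS + Tan group tangeretin at 50 mg/kg was injected by the same route 30 min earlier, with the lungs taken 12 h after LPS. Lungs without LPS and lungs given tangeretin alone were not analysed here, so the response of these genes to LPS itself cannot be read from the comparison.

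NRF2, encoded by Nfe2l2, is a transcription factor that KEAP1 holds in the cytoplasm and delivers for degradation. Oxidants and electrophiles modify cysteines of KEAP1, after which NRF2 accumulates, enters the nucleus and binds antioxidant response elements of genes for glutathione synthesis, NADPH supply and detoxification. Because this control acts on the NRF2 protein, the level of Nfe2l2 RNA is not a measure of NRF2 activity, and the target genes are read for that purpose. Ferroptosis is an iron-dependent death of cells in which phospholipids with polyunsaturated fatty acids are peroxidized, and GPX4 uses glutathione to reduce these lipid peroxides.

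The core letters of the antioxidant response element were looked for in the promoters, since the group is defined in part as NRF2 targets. RefSeq promoter windows of GRCm38.p6, from 250 bases before to 50 bases after a start site, were at hand for 31 of the 38 genes, and both strands were searched for TGACNNNGC, which reads GCNNNGTCA from the opposite strand. The letters were found in 11 of the 31 genes (35.5%), in 13.99% of all 27025 genes with a window and in 16.7% of the 12366 such genes tested here. The 11 matches are shown 5′ to 3′ on the strand of the gene with 10 bases on either side, the capitals marking the core letters, because they are the sequences by which the changes below are divided.
Nfe2l2 (chr2:75704885-75704913, minus strand): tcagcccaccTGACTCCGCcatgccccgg
Txnrd1 (chr10:82859104-82859132, plus strand): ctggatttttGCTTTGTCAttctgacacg
Srxn1 (chr2:152105542-152105570, plus strand): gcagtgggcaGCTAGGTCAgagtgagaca
Gclm (chr3:122245413-122245441, plus strand): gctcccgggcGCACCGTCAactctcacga
G6pdx (chrX:74428919-74428947, minus strand): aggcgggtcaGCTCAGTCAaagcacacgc
Pgd (chr4:149166061-149166089, minus strand): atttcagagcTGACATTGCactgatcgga
Me1 (chr9:86695902-86695930, minus strand): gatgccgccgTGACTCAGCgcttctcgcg
Gsta3 (chr1:21240454-21240482, plus strand): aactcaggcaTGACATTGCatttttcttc
Mgst1 (chr6:138140461-138140489, plus strand): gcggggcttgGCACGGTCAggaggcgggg
Prdx1 (chr4:116685456-116685484, plus strand): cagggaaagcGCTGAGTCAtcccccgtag
Sod1 (chr16:90220696-90220724, plus strand): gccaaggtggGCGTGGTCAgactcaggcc
The matches of Me1 and Prdx1 overlap the AP-1 letters TGANTCA, which are in the windows of 8.97% of all genes. A match of letters is a description of the window and not a site shown to be bound, and a gene without a match may hold the letters outside its window. Abcc1, Alox15, Gclc, Gsr, Gsta4, Prdx6 and Sod3 had no entry.

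All 38 genes had enough reads for a test by edgeR's filter on low counts, among 15706 genes that did. Their levels were compared per length in FPKM (fragments per kilobase of transcript and unit of library size). They ran from the plasma glutathione peroxidase Gpx3, with a median over the 8 mice of 1230 FPKM, through Prdx6 at 365, Txn1 at 303, Sod1 at 273, Prdx1 at 212 and Gpx1 at 211 FPKM, to 90.8 FPKM for Nfe2l2 at rank 10 of the 38. Of the 37 pairs of neighbours in this order, 32 overlapped in FPKM between mice, and the 5 that did not were Gpx3 over Prdx6, Sod1 over Prdx1, Mgst1 over Gpx4, Aifm2 over Nqo1 and Slc7a11 over Alox15. At the low end were Nqo1 at 1.03 FPKM, Slc7a11 at 0.911 FPKM and Alox15 at 0.0700 FPKM, so that Nqo1 and Slc7a11, often used as readouts of NRF2, were near 1 FPKM in this tissue.

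**Figure D1:**
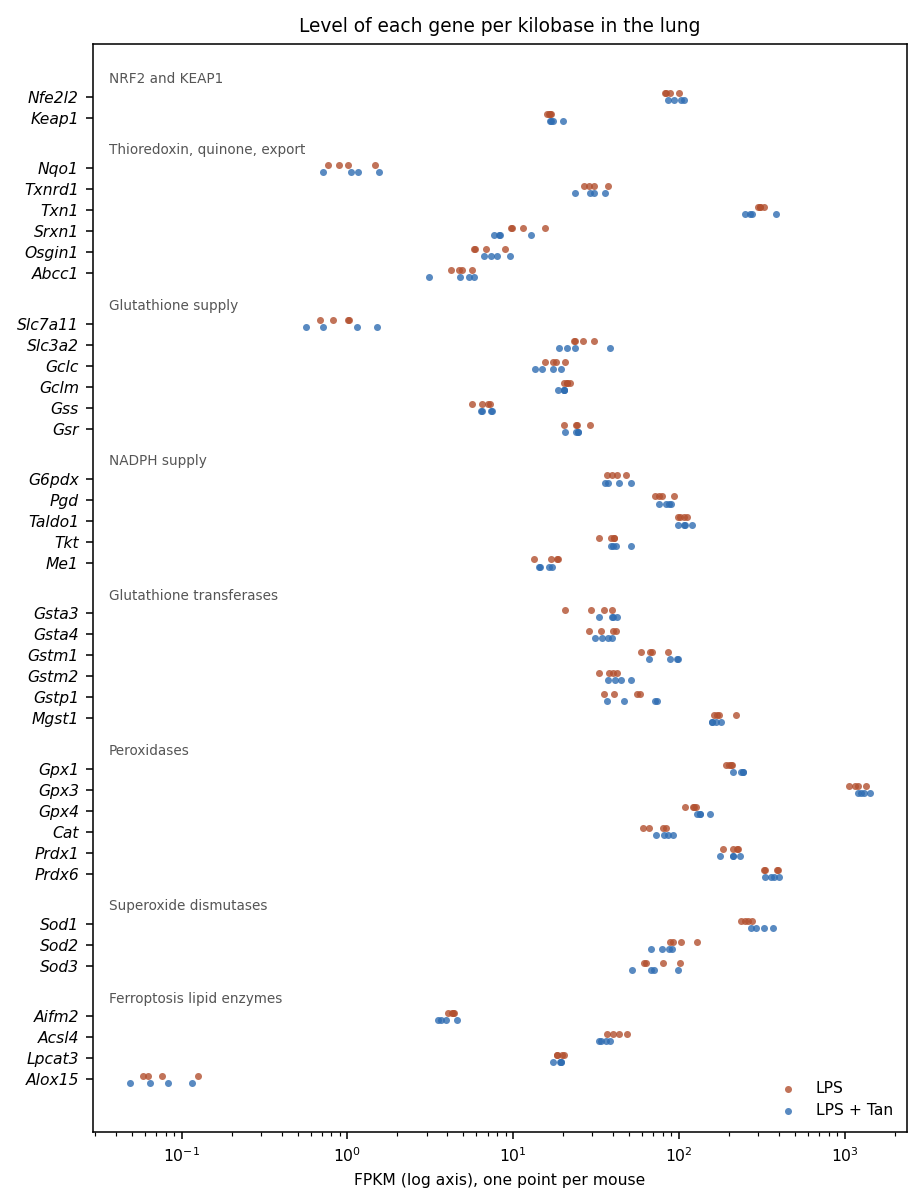
Level of each of the 38 genes in FPKM on a log axis, with one point per mouse, the LPS group in red above and the LPS + Tan group in blue below on each line, ordered by role. The median levels lie between 1230 FPKM for Gpx3 and 0.0700 FPKM for Alox15, and the points of both groups overlap for every gene except Gpx1 and Gpx4.

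The changes in this gene group were small. By edgeR's quasi-likelihood test between the groups, 3 of the 38 genes, 7.89%, were at an unadjusted p below 0.05, where 5.12% of all tested genes were. Sod1 was the 1 higher gene in the LPS + Tan group (2.87% of all tested genes were higher), and Sod2 and Acsl4 were the 2 lower genes (2.25% of all were lower). Of all calls 451 were higher and 353 lower with TMM scaling, and 653 were higher and 239 lower with scaling to the library total alone, which adds Gpx1 and Gpx4 to the higher genes of the 38. At the thresholds of the study for a differentially expressed gene, an unadjusted p below 0.05 with an absolute log2 fold change above 1, edgeR called 0 of the 38 genes, against 0.649% of all genes. After adjustment over all tested genes, 0 of the 38 and 0 of all genes were called by edgeR, and the lowest adjusted p of the 38 was 0.924. DESeq2 called 0 of the 38 after adjustment and 4 at an unadjusted p below 0.05, adding Gpx1 (4.41% of all genes in its fit), and its lowest adjusted p was 0.627. The CPM values (counts scaled to the size of the library by edgeR's TMM factors) overlapped between the groups for all 38 genes, where they did not for 2.73% of all tested genes. In the deposited FPKM, which are scaled to the library total without TMM factors, LPS and LPS + Tan mice were fully apart for 2 of the 38, Gpx1 and Gpx4, both higher in LPS + Tan, and for 3.13% of all tested genes.

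The log2 fold changes were centred near 0, with 18 genes higher and 20 lower, a median of -0.029 and quartiles of -0.11 and 0.12. Over all tested genes the median was 0.0070 and the quartiles were -0.10 and 0.11. No log2 fold change was beyond 0.5 in either direction (7.25% of all tested genes were), and the 95% intervals of all 38 lay inside an absolute log2 fold change of 1, as did those of 13073 of the 15706 genes. The median standard error was 0.12 against 0.14 over all genes. The 95% intervals reached a median of 0.26 to either side of the log2 fold change over the 38 genes, and a p that misses the threshold does not show that a gene was the same in both groups.

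**Figure D2:**
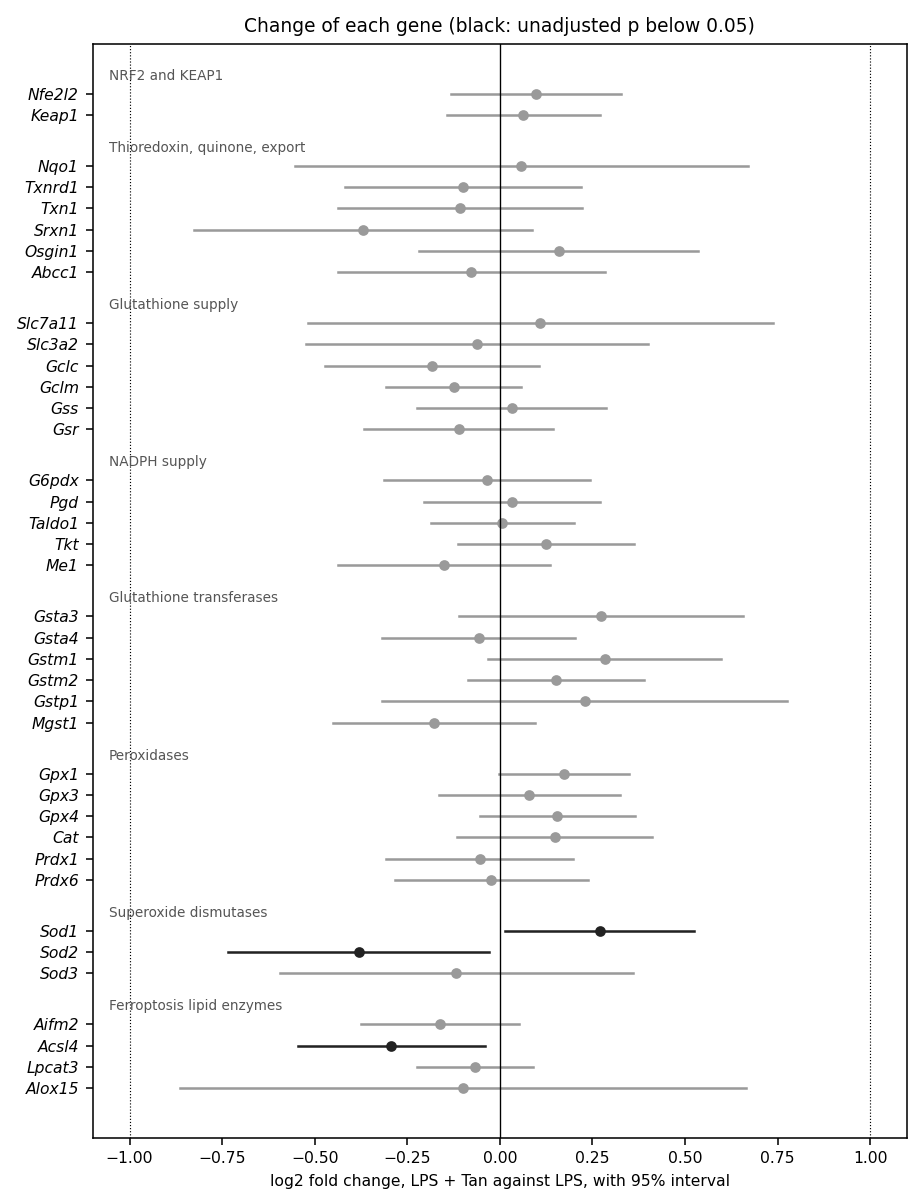
The log2 fold change of each gene in LPS + Tan against LPS with its 95% interval from edgeR, in black where the unadjusted p was below 0.05, with dotted lines at an absolute log2 fold change of 1. Only the intervals of Sod1, Sod2 and Acsl4 exclude 0, and no interval reaches the dotted lines.

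The levels of the NRF2 pair itself overlapped between the groups. Nfe2l2 (chr2:75675513-75704663 of GRCm38.p6) was at 210.5, 249, 229 and 210.6 CPM in LPS replicates 1 to 4 and at 261, 257, 203 and 241 CPM in LPS + Tan replicates 1 to 4. The highest values were those of LPS + Tan replicates 1 and 2 and the lowest was that of LPS + Tan replicate 3, so that the treated group spanned the LPS group. The means were 225 ± 18.3 CPM (SD, n = 4) for LPS and 240.5 ± 26.6 CPM (SD, n = 4) for LPS + Tan. The log2 fold change was 0.098 with a standard error of 0.10 and a 95% interval of -0.13 to 0.33, with an unadjusted p of 0.367 by edgeR.

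Keap1 (chr9:21229730-21239332), the adaptor that presents NRF2 to a ubiquitin ligase, was at 75.1, 71.5, 78.5 and 74.8 CPM in the LPS group and at 74.9, 74.5, 71.5 and 92.4 CPM in the LPS + Tan group. Apart from LPS + Tan replicate 4, all mice were within a narrow band. Its log2 fold change was 0.064 with a 95% interval of -0.14 to 0.27, and its unadjusted p was 0.510 by edgeR. The FPKM of Nfe2l2 was 4.67 to 6.24 times that of Keap1 in the 8 mice, with the lowest and the highest ratio both in the LPS + Tan group.

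**Figure D3:**
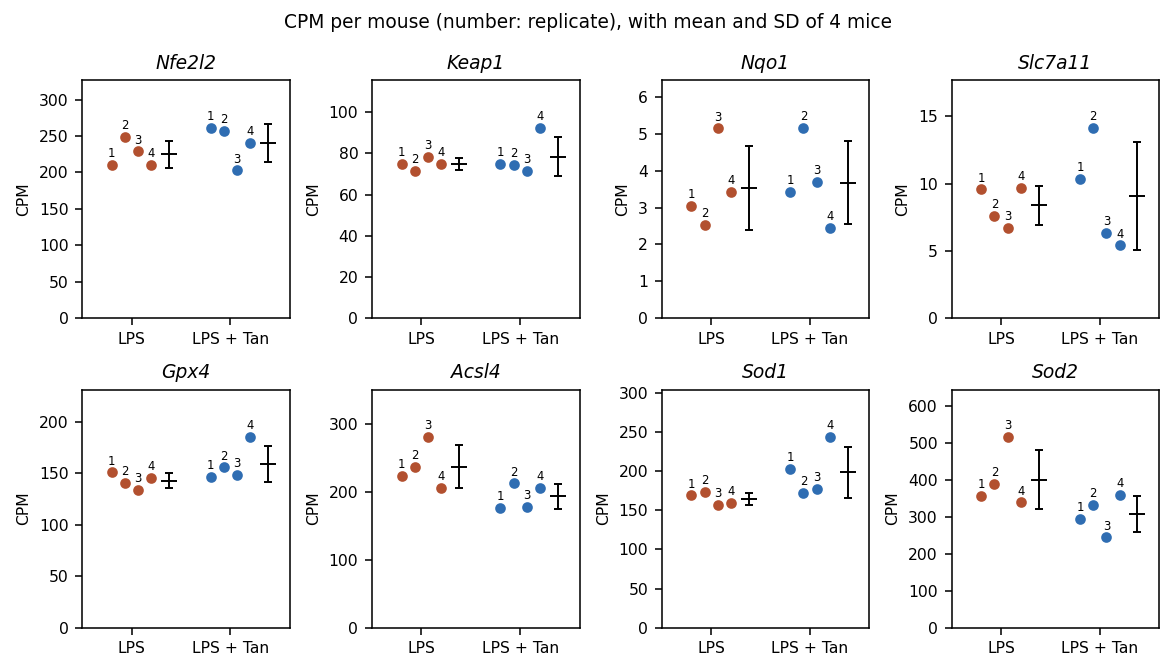
CPM of 8 genes in each mouse, numbered by replicate, with the mean and SD of the 4 mice of each group beside the points and axes that start at 0. The groups overlap for every gene, and LPS replicate 3 is the highest mouse for Acsl4 and Sod2 while LPS + Tan replicate 4 is the highest for Keap1, Gpx4 and Sod1.

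Among the 6 targets of the thioredoxin, quinone and export branch, 2 were higher, 4 were lower and 0 passed an unadjusted p of 0.05. Nqo1, the quinone reductase taken as a standard readout of NRF2, was at 3.04, 2.53, 5.15 and 3.42 CPM in the LPS group and at 3.42, 5.16, 3.69 and 2.44 CPM in the LPS + Tan group. Each group held a mouse near 5 CPM and a mouse near 2.5 CPM, and the log2 fold change of 0.058 had a wide 95% interval, from -0.55 to 0.67 (unadjusted p = 0.837, edgeR).

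Srxn1, the sulfiredoxin that restores overoxidized peroxiredoxins, had the largest difference of this branch. Its CPM was 33.6, 33.1, 55.0 and 39.4 in the LPS group and 25.5, 43.4, 26.9 and 28.9 in the LPS + Tan group. In the treated group 3 of 4 mice were below every LPS mouse and LPS + Tan replicate 2 was above 3 of them, and the log2 fold change was -0.37 with a 95% interval of -0.82 to 0.087 (unadjusted p = 0.101, edgeR). It was -0.18 without LPS replicate 3 and -0.57 without LPS + Tan replicate 2, each the highest mouse of its group for this gene. Leaving out a mouse for its distance fixes the direction of the move, so no p is given for these fits. Txn1, the cytosolic thioredoxin, showed a similar arrangement around a different mouse, with 272, 263, 275 and 418 CPM in the LPS + Tan group against 311 to 356 CPM in the LPS group. The thioredoxin reductase Txnrd1, with a log2 fold change of -0.10, the glutathione conjugate exporter Abcc1, with -0.077, and Osgin1, a growth inhibitor induced by oxidative stress, with 0.16, all had unadjusted p above 0.37. Osgin1 was at 0.33 without LPS replicate 3 and at 0.046 without LPS + Tan replicate 2.

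For the 6 genes that supply glutathione, 2 were higher, 4 were lower and 0 passed. Slc7a11 (chr3:50364936-50499087), the cystine carrier of system Xc-, was at 9.57, 7.62, 6.72 and 9.67 CPM in the LPS group. In the LPS + Tan group it was at 10.3, 14.1, 6.34 and 5.41 CPM. The treated mice thus held both the 2 highest and the 2 lowest values of all 8, with an SD of 4.01 CPM against 1.46 CPM for the LPS mice. Its log2 fold change was 0.11 with a 95% interval of -0.52 to 0.74, and the unadjusted p was 0.706 by edgeR. The sign turned when a mouse was left out, at -0.19 without LPS + Tan replicate 2 and 0.29 without LPS + Tan replicate 4.

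Slc3a2, the heavy chain that brings Slc7a11 and other amino acid carriers to the membrane, was highest in the same mouse as Slc7a11, LPS + Tan replicate 2, at 381 CPM. The other LPS + Tan mice were at 184, 202 and 242 CPM and the LPS mice at 238 to 303 CPM. Per length, Slc3a2 stood 16.7 to 42.0 times above Slc7a11 in FPKM. The subunits of glutamate-cysteine ligase, the first and limiting step of glutathione synthesis, were both lower in the mean, with log2 fold changes of -0.18 for the catalytic Gclc (95% interval -0.47 to 0.11) and -0.12 for the modifier Gclm (95% interval -0.31 to 0.058). Glutathione synthetase Gss, at 0.032, and glutathione reductase Gsr, at -0.11, completed the branch. Without LPS replicate 3 Gclc was at -0.095 and Gsr at 0.00097, and without LPS + Tan replicate 2 Gclc was at -0.29. Each mouse left out was the highest of its group for the gene, which fixes the direction of these moves.

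The 5 genes of NADPH supply had the median log2 fold change nearest to 0 of the roles, 0.0068, with a range of -0.15 to 0.12 and none past the threshold. G6pdx and Pgd, the NADPH-forming steps of the pentose phosphate pathway, had log2 fold changes of -0.035 and 0.033, and Taldo1, of its non-oxidative arm, had 0.0068 with a 95% interval of -0.19 to 0.20. Malic enzyme Me1 was at -0.15 with a 95% interval of -0.44 to 0.14. It was at -0.25 without LPS replicate 4 and at -0.081 without LPS replicate 3. Transketolase Tkt was at 0.12, and LPS + Tan replicate 1 stood apart in it at 160.2 CPM against 128 to 129 CPM in the other 3 treated mice.

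Of the 6 glutathione transferases, which couple glutathione to electrophiles, 4 were higher and 2 lower, with a median log2 fold change of 0.19 and 0 past the threshold. Gstm1 was at 119, 94.1, 84.4 and 92.5 CPM in the LPS group and at 132, 90.4, 127 and 126 CPM in the LPS + Tan group. In this gene 3 of 4 treated mice were above every LPS mouse, LPS + Tan replicate 2 was below 3 of them, and the log2 fold change was 0.28 with a 95% interval of -0.032 to 0.60 (unadjusted p = 0.0735, edgeR). Differences on the log2 scale were 0.27 for Gsta3, 0.15 for Gstm2 and 0.23 for Gstp1, and -0.057 for Gsta4 and -0.18 for the membrane-bound Mgst1. With each mouse left out in turn Gsta3 ran from 0.13 (without LPS replicate 3) to 0.41 (without LPS replicate 1). Over the same fits Gstp1 ran from 0.074 to 0.40 and Mgst1 from -0.24 to -0.052 (without LPS replicate 3). Gstp1 varied between mice more than between groups, at 26.4 to 34.7 CPM in replicates 1 and 2 of both groups and at 43.4 to 55.0 CPM in replicates 3 and 4 of both. In the GENCODE M21 transcripts 62.3% of the 50-base windows of Gstp1 and 23.1% of those of Gstm1 are shared with other genes, Gstp2 (6 to 40 counts per mouse) and Gstm2-ps1 in the main, so that the values of both depend on how shared reads were counted. The same holds for Me1, with 32.8% of its windows shared.

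Of the 6 peroxidases, 4 were higher and 2 lower, with a median log2 fold change of 0.11 and 0 past the threshold. Gpx4 (chr10:80047166-80056439), which reduces phospholipid hydroperoxides and is the main brake on ferroptosis, was at 151, 141, 134 and 146 CPM in the LPS group and at 146, 156, 149 and 185 CPM in the LPS + Tan group. LPS + Tan replicate 4 was the highest of all and LPS + Tan replicate 2 the next, while in CPM the other 2 treated mice lay among the LPS mice. In FPKM all 4 treated mice, at 129, 133, 134 and 153, were above every LPS mouse, at 127, 121, 109 and 123. The means were 143 ± 7.29 CPM (SD, n = 4) for LPS and 159 ± 17.8 CPM (SD, n = 4) for LPS + Tan, a difference of 11.3% with a 95% interval of -3.67% to 28.7%. Its log2 fold change was 0.15 with a standard error of 0.094 and an unadjusted p of 0.129 by edgeR. Counts scaled to the library total alone, or the deposited FPKM values tested with limma, put Gpx4 past an unadjusted p of 0.05, with a lowest p of 0.0393, and all other settings did not. Without LPS + Tan replicate 4 the log2 fold change was 0.074, with an unadjusted p of 0.321 by edgeR. A processed pseudogene, Gpx4-ps2, shares 61.7% of the 50-base windows of Gpx4.

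Gpx1, the abundant cytosolic glutathione peroxidase, came nearest to the threshold of those that missed it. It was at 218, 207, 209 and 221 CPM in the LPS group and at 247, 219.6, 242 and 256 CPM in the LPS + Tan group, where all but LPS + Tan replicate 2 were above every LPS mouse. In FPKM that mouse too, at 211, was above the highest LPS mouse, at 210.2. The log2 fold change was 0.17 with a 95% interval of -0.0036 to 0.35 and an unadjusted p of 0.0540 by edgeR. Gpx3 (0.079), catalase Cat (0.15), Prdx1 (-0.054) and Prdx6 (-0.023) had log2 fold changes with 95% intervals that held 0.

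The superoxide dismutases were the one role with called genes in both directions. Sod1 (chr16:90220762-90226333), the cytosolic copper-zinc enzyme, was at 169, 174, 157 and 160.0 CPM in the LPS group and at 203, 172, 177 and 243 CPM in the LPS + Tan group. The treated mice were higher apart from replicate 2, which was just below the highest LPS mouse, and replicate 4 stood far above the rest. The means were 165 ± 7.65 CPM (SD, n = 4) and 199 ± 32.6 CPM (SD, n = 4), and the log2 fold change was 0.27 with a standard error of 0.11 and a 95% interval of 0.015 to 0.52. The unadjusted p was 0.0402 and the adjusted p 0.924 by edgeR. Of the 50-base windows of Sod1, 23.1% are shared with Gm8566, so that its counts too depend on how shared reads were assigned. Without LPS + Tan replicate 4 the log2 fold change was 0.16, with an unadjusted p of 0.0868.

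Sod2 (chr17:13007839-13018119), the manganese enzyme of mitochondria and a known target of NF-κB, was at 358, 389, 516 and 339.6 CPM in the LPS group and at 294, 332, 245 and 359.7 CPM in the LPS + Tan group. LPS replicate 3 was the highest by a wide margin, and LPS + Tan replicate 4 was above 2 of the LPS mice. The means were 401 ± 79.6 CPM (SD, n = 4) and 308 ± 49.8 CPM (SD, n = 4), and the log2 fold change of -0.38, the largest in size of the 38 genes, had a standard error of 0.16 and a 95% interval of -0.73 to -0.029. The unadjusted p was 0.0368 and the adjusted p 0.924 by edgeR. Without LPS replicate 3 the log2 fold change was -0.24, with an unadjusted p of 0.122. Extracellular Sod3 was at -0.12 on the log2 scale (95% interval -0.59 to 0.36), and its highest values were those of LPS replicate 1 (211 CPM) and LPS + Tan replicate 4 (207 CPM).

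All 4 genes of the ferroptosis lipid enzymes were lower in the mean, with a median log2 fold change of -0.13, and 1 of them passed the threshold. Of the 15706 tested genes 7571 were lower. The 4 do not share a direction of effect on ferroptosis, since Aifm2 checks lipid peroxidation. Acsl4 (chrX:142317993-142390802), which activates arachidonic acid for its entry into phospholipids and so sets how much peroxidizable lipid a cell holds, was at 224, 238, 281 and 206.7 CPM in the LPS group. In the LPS + Tan group it was at 177, 213, 178 and 206.8 CPM. LPS + Tan replicates 1 and 3 were below every LPS mouse, and replicates 2 and 4 were above LPS replicate 4. The means were 238 ± 31.8 CPM (SD, n = 4) and 194 ± 18.7 CPM (SD, n = 4), a difference of -18.4% with a 95% interval of -31.5% to -2.80%. The log2 fold change was -0.29 with a standard error of 0.11, the unadjusted p was 0.0269, the lowest of the 38 genes, and the adjusted p was 0.924 by edgeR. Without LPS replicate 3 the log2 fold change was -0.20, with an unadjusted p of 0.0878.

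Aifm2, the FSP1 enzyme that regenerates ubiquinol and checks lipid peroxidation without glutathione, was at 23.6 to 24.6 CPM in the LPS group and at 19.98, 25.5, 21.1 and 20.2 CPM in the LPS + Tan group. In it LPS + Tan replicate 2 was the highest and the other treated mice were below every LPS mouse (log2 fold change -0.16, 95% interval -0.37 to 0.051). Lpcat3, which inserts the acyl chains that Acsl4 activates, was at -0.067 with a 95% interval of -0.22 to 0.090, the narrowest of the group. The lipoxygenase Alox15 was at about 1 CPM in most mice, and its interval of -0.86 to 0.67 was the widest.

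Ratios of genes within a mouse remove what scales both genes alike, and 5 ratios were looked at, chosen after the values were seen and so without a test. The FPKM of Gpx4 over that of Acsl4 was 3.18, 2.80, 2.25 and 3.34 in the LPS group and 3.90, 3.46, 3.95 and 4.23 in the LPS + Tan group, without overlap. The FPKM of Sod2 over that of Sod1 was 0.352, 0.373, 0.546 and 0.354 in the LPS group and 0.241, 0.321, 0.230 and 0.246 in the LPS + Tan group, also without overlap. Among all such ratios, 28 of the 703 pairs among the 38 genes (3.98%) and 2.99% of all pairs of tested genes did not overlap. The ratios of Nfe2l2 to Keap1, of Gclc to Gclm and of Slc3a2 to Slc7a11 overlapped.

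Mice of one group also differed among themselves across the 38 genes. LPS replicate 3 was the highest LPS mouse for 17 of the 38 genes (44.7%, against 28.5% of all tested genes), among them Nqo1, Txnrd1, Srxn1, Osgin1, Gclc, Gclm, Gsr, G6pdx, Pgd and Sod2, and it was the lowest for 10 (26.3%, against 29.6%), among them Gsta3, Gstm1, Gpx4 and Sod1. LPS + Tan replicate 3 was the highest treated mouse for 1 gene, Gpx3 (2.63%, against 18.6% of all genes), and LPS + Tan replicate 4 was the highest for 14 (36.8%, against 30.4%). LPS + Tan replicate 2 was the highest treated mouse for 11 genes (28.9%, against 26.9%) and the lowest for 13 (34.2%, against 29.3%). Taking the median over the 38 genes of each mouse's log2 deviation from the mean of the LPS mice, LPS replicate 3 was at 0.053 and LPS replicate 4 at -0.063, and the treated mice lay between -0.058 and 0.0075.

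**Figure D4:**
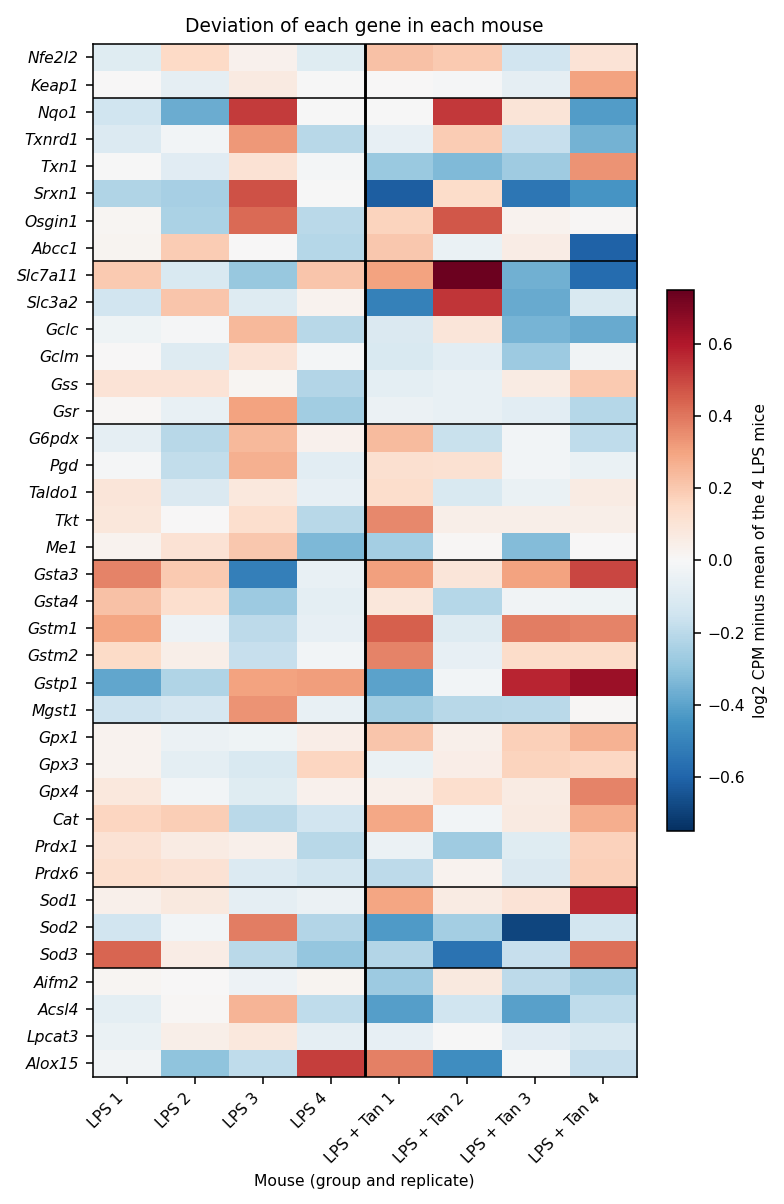
The log2(CPM + 0.5) of each gene in each mouse minus the mean of that gene over the 4 LPS mice, with red for higher and blue for lower, genes in the order of their roles and a line between the groups. LPS replicate 3 is red for most thioredoxin and glutathione supply genes and blue for the glutathione transferases Gsta3, Gsta4, Gstm1 and Gstm2.

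Lung is a mixture of cells, and in bulk tissue fewer cells of a type and less RNA per cell cannot be told apart. Between 38895654 and 39931970 reads per mouse were counted on genes, and the surfactant gene Sftpc, which marks lung, had mean CPM of 4522 and 4859 in the groups. Of 10 alveolar type 2 cell markers, Sftpc among them, 2 were higher and 8 lower, with a median log2 fold change of -0.053 and 0 called by edgeR. The summed CPM of 13 neutrophil markers was 9217 to 12370 in the LPS group, with the highest value in LPS replicate 3, which was also the highest for Sod2 and Acsl4, and 9755 to 9927 in the LPS + Tan group, with 0 of 13 markers called by edgeR. The sum of 10 endothelial markers was 4727 to 5821 CPM in the LPS group and 5297 to 6966 CPM in the LPS + Tan group, with 3 of 10, Kdr, Tek and Eng, higher at an unadjusted p below 0.05. All 10 erythroid markers were lower in the mean, with sums of 1443 to 3321 CPM in the LPS group and 1372 to 2245 CPM in the LPS + Tan group and 0 called by edgeR. All 9 cardiac muscle markers were higher in the mean (median log2 fold change 0.32, sums of 164 to 237 CPM for LPS and 166 to 352 CPM for LPS + Tan, 0 called by edgeR), 8 of 10 monocyte and macrophage markers were higher with C1qa called (unadjusted p = 0.0155, edgeR), and 8 of 9 ciliated cell markers were lower with 0 called by edgeR. Of 10 heat shock and immediate early genes, which respond to handling of tissue, 3 were higher, Hspa1a by a log2 fold change of 1.71, Hspa1b by 1.92 and Dnajb1 by 0.37, and 2 were lower, Fos at -0.75 and Egr1 at -0.76, at an unadjusted p below 0.05, which is 50.0% of the list against 5.12% of all genes, with sizes of up to 1.92 where the largest of the 38 genes was 0.38. The platelet marker Ppbp (1 of 7) was lower and the pericyte marker Cox4i2 (1 of 9) was higher at the same threshold. No defining marker of these lists was at 0 in every mouse, and the part of cell numbers or handling in the changes of the 38 genes was not tested.

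To set the group beside the rest of its pathways, 129 tested genes in 5 further lists were read from the same fit. Of these, 6 (4.65%) were at an unadjusted p below 0.05, 3 higher and 3 lower, against the 5.12% of all genes, and their median log2 fold change was -0.015. Among 27 further NRF2 targets, 2 were higher, Pir, an iron-binding nuclear protein, by a log2 fold change of 0.45 (unadjusted p = 0.0265), and Ephx1, the microsomal epoxide hydrolase, by 0.41 (unadjusted p = 0.0306), and 2 were lower, the exporter Abcc4 by -0.35 (unadjusted p = 0.0369) and the epithelial peroxidase Gpx2 by -0.57 (unadjusted p = 0.0452, edgeR for all 4). The microsomal transferase Mgst3, among 32 further glutathione genes, was at 0.38 (unadjusted p = 0.0306, edgeR).

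Of 40 further ferroptosis genes, 1 passed, Mboat1, an acyltransferase that remodels phospholipids, at -0.30 (unadjusted p = 0.0195, edgeR), with 8.76 to 10.2 CPM in the LPS + Tan group and 10.6 to 12.9 CPM in the LPS group. With each mouse left out in turn, an unadjusted p below 0.05 by edgeR was kept in 7 of 8 fits by Mboat1, in 5 by Pir and Ephx1, in 4 by Gpx2 and in 3 by Abcc4 and Mgst3. Without LPS replicate 3 the log2 fold change was -0.21 for Abcc4 (unadjusted p = 0.120), -0.37 for Gpx2 (unadjusted p = 0.1503) and 0.26 for Ephx1 (unadjusted p = 0.0430, edgeR for all 3). None of 14 further NRF2 regulators and none of 16 further thioredoxin and peroxide genes passed by edgeR, although the groups of Ccs, the copper chaperone of Sod1, did not overlap (12.2 to 14.8 CPM for LPS and 14.9 to 16.8 CPM for LPS + Tan, unadjusted p = 0.0691, a gene singled out after its values were seen).

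Hmox1 and Ptgs2, of which the study measured the protein in lung, as it did for NRF2, KEAP1 and GPX4, were read whatever their values. Hmox1, the heme oxygenase that NRF2 induces, was at 92.7, 76.1, 94.99 and 67.1 CPM in the LPS group and at 121, 104, 95.6 and 81.7 CPM in the LPS + Tan group. The 3 highest values of all were those of treated mice, and LPS + Tan replicate 4 was below 2 of the LPS mice. On the log2 scale the difference was 0.28 with a 95% interval of -0.039 to 0.60 (unadjusted p = 0.0790, edgeR). It was 0.18 without LPS + Tan replicate 1, the highest treated mouse, and 0.37 without LPS + Tan replicate 4, the lowest, so the direction of both moves was fixed. Hmox1 was at an unadjusted p below 0.05 in 4 of the 19 alternatives, 2 of them fits with a mouse left out. Ptgs2, the inducible cyclooxygenase used as a marker of ferroptosis, was at 45.6, 44.5, 37.6 and 48.5 CPM in the LPS group and at 41.1, 29.9, 31.2 and 47.7 CPM in the LPS + Tan group, with a log2 fold change of -0.23 and a 95% interval of -0.57 to 0.11 (unadjusted p = 0.156, edgeR). Its log2 fold change was -0.14 without LPS + Tan replicate 2, the lowest treated mouse, and -0.37 without LPS + Tan replicate 4, the highest.

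Divided by the promoter letters printed above, the 11 genes with TGACNNNGC in their window had a median log2 fold change of -0.054, with 4 higher and 7 lower, and the 20 genes without it had a median of 0.071, with 14 higher and 6 lower. One gene with the letters, Sod1, and 2 without, Sod2 and Acsl4, were among the called genes. The range was -0.37 for Srxn1 to 0.27 for Gsta3 in the first set and -0.38 for Sod2 to 0.28 for Gstm1 in the second. Of all tested genes, with and without the letters, 51.8% were higher and 5.12% were called. The sets were not compared by a test, and the changes of other tested genes with the letters were not read.

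The number of calls moved when a mouse was left out. With each mouse left out in turn, edgeR called between 0 and 9 of the 38 genes at an unadjusted p below 0.05. It called 0 without LPS replicate 2 or LPS + Tan replicate 1, where 4.13% and 3.02% of all tested genes were called. It called 1 without LPS replicate 3 (Osgin1) or LPS + Tan replicate 3 (Sod1), where 3.69% and 3.72% of all were called, and 9 without LPS + Tan replicate 2. The 9 genes were Gstm1, Gpx1 and Sod1, which were higher, and Srxn1, Slc3a2, Gclc, Sod2, Aifm2 and Acsl4, which were lower. They made up 23.7% of the 38 genes, and without the same mouse 10.2% of all tested genes were called. The lowest adjusted p of the group was then 0.304 by edgeR, and with any mouse left out 0 of the 38 genes were called after adjustment. Acsl4 and Sod2 kept an unadjusted p below 0.05 in 4 of the 8 fits and Sod1 in 2 of the 8, and each kept its direction in all of them. In the fits with 0 calls the sizes stayed close to those with all mice, at 0.29 for Sod1, -0.40 for Sod2 and -0.30 for Acsl4 on the log2 scale without LPS replicate 2 and at 0.26, -0.36 and -0.26 without LPS + Tan replicate 1. They shrank by over 1.5 times for Sod2 without LPS replicate 3 and for Sod1 without LPS + Tan replicate 4.

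**Figure D5:**
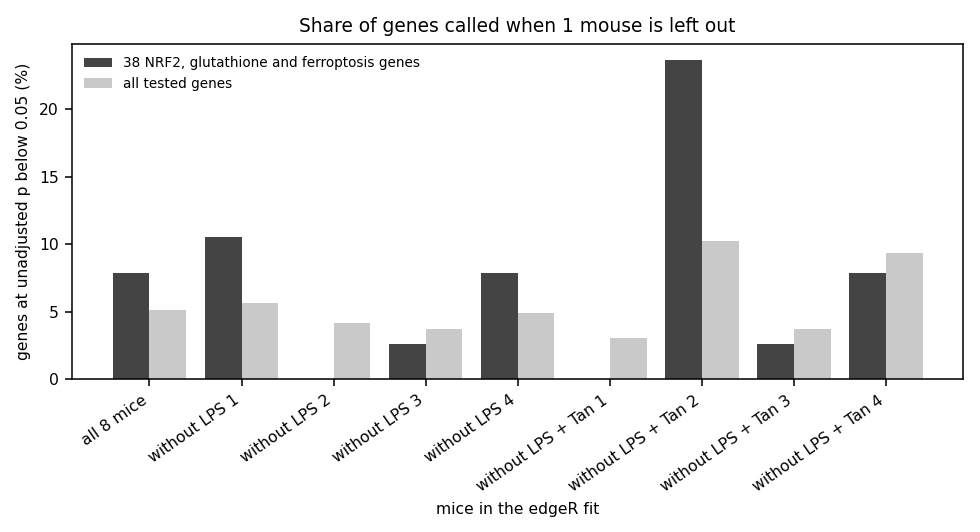
Percent of genes at an unadjusted p below 0.05 by edgeR with all 8 mice and with each mouse left out, for the 38 genes in dark bars and for all tested genes in light bars. The share of the 38 genes is 0 without LPS replicate 2 or LPS + Tan replicate 1, where that of all genes is 4.13% and 3.02%. It reaches 23.7% without LPS + Tan replicate 2, where the share of all genes is 10.2%.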

How the data were processed

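Lung RNA of 4 LPS and 4 LPS + Tan mice was sequenced. The authors deposited raw read counts per gene and FPKM values made from them, for the same 24584 genes. The submitters' processing notes name GRCm38 and mm10, whereas for the aligner and counter this is not given in the sources used here. Labels name column extraction and library kits other than those of the methods. Samples were grouped by the labels, with 0 columns left without a sample. The methods describe separate mice, and p-values measure the spread between them.

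The deposited counts entered edgeR 4.0.16 under R 4.3.3 (filterByExpr, TMM scaling, quasi-likelihood test, no covariate), and p was adjusted by the Benjamini-Hochberg method over 15706 genes. The standard error is the log2 fold change divided by the square root of F. FPKM was used for levels and ratios between genes. Total counts of 38895654 to 39931970 leave the spread between mice, not depth, as the main error, except for genes near 1 CPM. Sampling noise was exceeded 7.83 to 22.4 times by the median squared difference between libraries of one group. The fit was tested on simulated data.

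Alternatives were RLE, upper-quartile and library total scaling, no filter, at least 1 CPM in 4 samples, edgeR's likelihood ratio test, DESeq2 1.42.0, limma-voom and limma 3.58.1 on log2(FPKM + 1) and log2(FPKM + 0.1), a block for the replicate number, and each mouse left out. The further lists were also chosen with earlier results of these data known, like the 38 genes. Of 347 listed genes, marker lists included, 344 were in the tables. All 38 genes are named, with values per mouse for Nfe2l2, Keap1, Gpx4, Slc7a11, Nqo1 and genes at an unadjusted p below 0.05, and values per mouse of other members were chosen after they were seen. Hmox1, Ptgs2 and up to 3 further pathway genes per list and direction are named by p. Promoter windows and coordinates are from RefSeq (GRCm38.p6) and shared windows from GENCODE M21 transcripts.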

Additional observations from a re-analysis of the deposited data

Results flagged for a closer look

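In each group of 4 mice, the gap of the highest or lowest mouse to its nearest neighbour in log2 CPM was divided by the range of the group and compared with Dixon's critical value for 4 samples, over 80 groups (38 genes and Hmox1 and Ptgs2 in both treatments). Chance alone puts about 5% of groups above this value, or 4 of 80, and 3 were above it. All 3 were LPS + Tan mice, each a different one. Txn1, thioredoxin, was at 418 CPM in LPS + Tan replicate 4 against 275 CPM in the next mouse, a ratio of 0.903, and without this mouse edgeR's log2 fold change of Txn1 was -0.29, against -0.11 with all mice. Tkt, transketolase, was at 160.2 CPM in LPS + Tan replicate 1 against 129 CPM in the next, a ratio of 0.989, and without this mouse its log2 fold change was 0.036, against 0.12. Gstm1 was at 90.4 CPM in LPS + Tan replicate 2 against 126 CPM in the next, a ratio of 0.865, and without this mouse its log2 fold change was 0.39, against 0.28. Each mouse was left out for its distance in the same gene, which fixes the direction of these moves, so no p is given for them. The cause of these gaps was not tested.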

How the results depend on the processing

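Of the 38 genes, edgeR called 3 at an unadjusted p below 0.05. The count was 5 with library total scaling and 5 with limma on log2(FPKM + 1) and on log2(FPKM + 0.1), which add Gpx1 and Gpx4, and it was 3 or 4 with every other scaling, filter and tool tried. With each mouse left out it ran from 0 to 9, that of all genes from 480 (without LPS + Tan replicate 1) to 1626 (without LPS + Tan replicate 2), with 1488 without LPS + Tan replicate 4 against 804 with all mice, and that of the other pathway genes from 2 to 14 against 6. The median log2 fold change of the 38 ran from -0.034 to 0.021 in these fits. Whether the numbers of the replicates pair the mice is not known, and the labels name nothing that a number shares. The deviations of same-numbered mice over all tested genes correlated at 0.16, -0.050, -0.16 and 0.044. Such correlations cannot show that no gene follows the number, and Gstp1 differed between replicates 1 and 2 and replicates 3 and 4 in both groups. With the replicate number as a block, edgeR called 0 of the 38 genes, 10 of the other pathway genes and 826 of all genes. The median log2 fold change of the 38 was then -0.031, against -0.029 without the block. No called member changed direction under any of the 19 alternatives, and 22 of the 38 genes kept their sign in all of them while 16 changed it in at least 1. Library total scaling moved the median of all genes to 0.049 and the higher share of all calls from 56.1% (451 higher, 353 lower) to 73.2% (653 and 239), and limma on FPKM put it at 70.0% and 70.1%. After adjustment 0 of the 38 genes were called under any alternative, where DESeq2 called 35 and the likelihood ratio test 23 of all genes. The causes of these moves were not tested. In FPKM in place of CPM, compared after seeing the data, 2 of the 38 genes did not overlap between the groups, against 0. Depth limits Alox15, with 29 to 75 reads per mouse.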
